A study of Mus musculus with 8 samples.

Results

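The assays described here measure the leukocyte miRNAs miR-223, miR-142-3p, miR-142-5p and miR-150 in whole mouse liver. They are 4 of the 381 assays listed for the cards and were chosen by name, for the blood cells that each miRNA is known to mark, and all 4 were determined on all 8 cards. miR-223 is a miRNA of myeloid cells and is abundant in neutrophils. miR-142 is made in nearly all cells of the blood lineage, and both arms of its hairpin give a mature miRNA. miR-150 is abundant in mature lymphocytes. The liver holds resident macrophages and lymphocytes, and neutrophils and monocytes enter it from the blood after toxic injury.

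The study profiled livers of mice exposed to carbon tetrachloride (CCl4), a solvent that injures hepatocytes and is used to produce liver fibrosis. All groups were female C57B6 mice that were 4 weeks old when treatment began, and age at sampling was not given in the sources used here. The groups were untreated mice, labelled as controls given no treatment, and mice given CCl4 in corn oil by intraperitoneal injection 2 times a week for 1, 4 or 8 weeks. The labels give the dose as 1 mg/kg and the methods give it by volume. No vehicle is named for the untreated group. Each group had 2 TaqMan cards, and the labels do not say that the cards are separate mice, while the design text counts 4, 3 and 2 mice in the CCl4 groups, so the p-values measure the spread between these cards, which may be technical. In whole-liver RNA, more leukocytes and more miRNA per leukocyte cannot be told apart.

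A card gives a Ct, the PCR cycle at which an assay's signal crosses a threshold, so a lower Ct means more miRNA and 1 cycle is close to 1 unit on the log2 scale. The cards determined 193 to 235 assays each, and the mean Ct of the 149 assays below Ct 35 on every card ran from 27.5 to 29.8, with the second 4-week card the faintest. Each Ct was subtracted from that card mean to give a centred log2 value, and 166 assays were tested. miR-122, the defining miRNA of hepatocytes, had a Ct of 21.95 to 24.16 and was the assay with rank 9 by lowest mean Ct among the 166, and the plant control assay was determined on 0 of 8 cards.

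The mature sequences of 3 of the 4 assays were matched in RefSeq (GRCm38.p6). They are shown because the results turn on assays that share a hairpin or a lineage but not a seed. Capitals mark the seed, bases 2 to 8 from the 5′ end.
miR-223-3p: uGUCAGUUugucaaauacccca
miR-142a-3p: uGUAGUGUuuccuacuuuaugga
miR-142a-5p: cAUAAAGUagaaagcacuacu
The 3 seeds were distinct, and 0 other mature miRNAs among the 1679 in the same table carried any of them. miR-223-3p lies at chrX:96242884-96242905 on the plus strand, within the long non-coding gene F630028O10Rik. Both miR-142 arms lie in the 64-base Mir142 hairpin on the plus strand of chromosome 11, the 5p arm at chr11:87756867-87756887 and the 3p arm at chr11:87756903-87756925, with 15 bases between them. Mir142b overlaps that hairpin, and its nearest protein-coding gene is Tspoap1.

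Each of the 4 miRNAs was higher than in untreated liver at some time on CCl4, and they did not share a single time course. miR-223 was raised at 1 and 4 weeks. miR-150 was raised at 1 week, and at 4 and 8 weeks the range of its cards overlapped that of the untreated cards. The arms of miR-142 parted at 1 week, when miR-142-5p was raised and miR-142-3p was not, and both were raised at 4 weeks. No member passed the test at 8 weeks, where 3 of the 4 were above untreated on both cards, as were 28.3% of the 166 tested assays.

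miR-223 was the brightest of the 4 assays, with a mean Ct of 23.8 and rank 13 of 166. Its raw Ct was 25.35 and 24.58 (untreated cards), 23.28 and 23.56 (1-week cards), 22.14 and 23.94 (4-week cards), and 22.98 and 24.53 (8-week cards). Relative to the untreated mean its centred values were -0.21 and 0.21 on the log2 scale in untreated liver, 2.28 and 1.83 on the 1-week cards, 2.91 and 2.63 on the 4-week cards, and 1.30 and 1.15 on the 8-week cards. All 6 CCl4 cards lay above both untreated cards. On a linear scale with untreated liver near 1, the level was 4.21 ± 0.918 (SD, n = 2) for the 1-week group, 6.85 ± 0.937 for the 4-week group and 2.34 ± 0.177 for the 8-week group. In limma, the log2 fold change was 2.06 ± 0.31 (SE) at 1 week (adjusted p = 0.00411) and 2.77 at 4 weeks (adjusted p = 0.00168). The 8-week difference of 1.22 did not pass the test (adjusted p = 0.0792, unadjusted p = 0.00492). Among the 166 assays, ordered from the largest increase, miR-223 ranked 16 at 1 week, 5 at 4 weeks and 14 at 8 weeks.

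miR-142-3p had a raw Ct of 27.93 and 27.69 (untreated cards), 28.57 and 28.47 (1-week cards), 25.60 and 27.71 (4-week cards), and 26.07 and 27.94 (8-week cards). Its centred log2 values relative to untreated were 0.06 and -0.06 (untreated cards), -0.16 and -0.23 (1-week cards), 2.30 and 1.71 (4-week cards), and 1.06 and 0.58 (8-week cards). Both 1-week cards lay just below the untreated cards, and both later pairs lay above them. The linear level was 0.872 ± 0.0291 (SD, n = 2) for the 1-week group, 4.08 ± 1.16 for the 4-week group and 1.79 ± 0.412 for the 8-week group. The log2 fold change was -0.20 ± 0.32 (SE) at 1 week (limma adjusted p = 0.647, 95% interval -0.95 to 0.55), and 2.00 at 4 weeks (adjusted p = 0.00529). At 8 weeks it was 0.82 (adjusted p = 0.172, unadjusted p = 0.0369).

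miR-142-5p was a faint assay, with a mean Ct of 33.2 and rank 153 of 166. Its raw Ct was 33.97 and 33.94 (untreated cards), 33.13 and 32.55 (1-week cards), 32.42 and 33.99 (4-week cards), and 32.15 and 33.85 (8-week cards). The Ct of 33.99 on the second 4-week card was no lower than untreated, and it was read on the faintest card of the series. After centring, the log2 values relative to untreated were 0.16 and -0.16 (untreated cards), 1.42 and 1.83 (1-week cards), 1.62 and 1.57 (4-week cards), and 1.12 and 0.82 (8-week cards). All 6 CCl4 cards again lay above both untreated cards. The linear level was 3.12 ± 0.626 (SD, n = 2) for the 1-week group, 3.02 ± 0.0738 for the 4-week group and 1.97 ± 0.293 for the 8-week group. The log2 fold change was 1.63 ± 0.30 (SE) at 1 week (limma adjusted p = 0.0079) and 1.60 at 4 weeks (adjusted p = 0.00758). It was 0.97 at 8 weeks (adjusted p = 0.114, unadjusted p = 0.013), and 0.51 there with quantile normalization (unadjusted p = 0.123). The 1-week call was lost without the second 1-week card (1.42, adjusted p = 0.0583), and the 4-week call without the second untreated card (1.42, adjusted p = 0.0568). Both calls were also lost when cards were centred on every determined assay, and the 1-week call with quantile normalization.

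miR-150 had a raw Ct of 26.95 and 26.14 (untreated cards), 25.28 and 24.90 (1-week cards), 26.72 and 27.81 (4-week cards), and 25.68 and 27.39 (8-week cards). Its centred log2 values relative to untreated were -0.23 and 0.23 (untreated cards), 1.86 and 2.07 (1-week cards), -0.09 and 0.34 (4-week cards), and 0.18 and -0.13 (8-week cards). Only the 1-week group had both cards clear of the untreated cards. The second 4-week card lay above both untreated cards, and the remaining later cards lay between them. The linear level was 3.92 ± 0.406 (SD, n = 2) for the 1-week group, 1.10 ± 0.231 for the 4-week group and 1.02 ± 0.157 for the 8-week group. The 1-week log2 fold change was 1.97 ± 0.32 (SE; limma adjusted p = 0.00513). The differences at 4 weeks (0.13, adjusted p = 0.790, 95% interval -0.61 to 0.86) and 8 weeks (0.02, adjusted p = 0.951, interval -0.72 to 0.76) did not pass the test. They were larger when cards were centred on control RNAs (0.77 and 0.48) and with quantile normalization (0.55 and 0.38), again without a call.

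**Figure D1:**
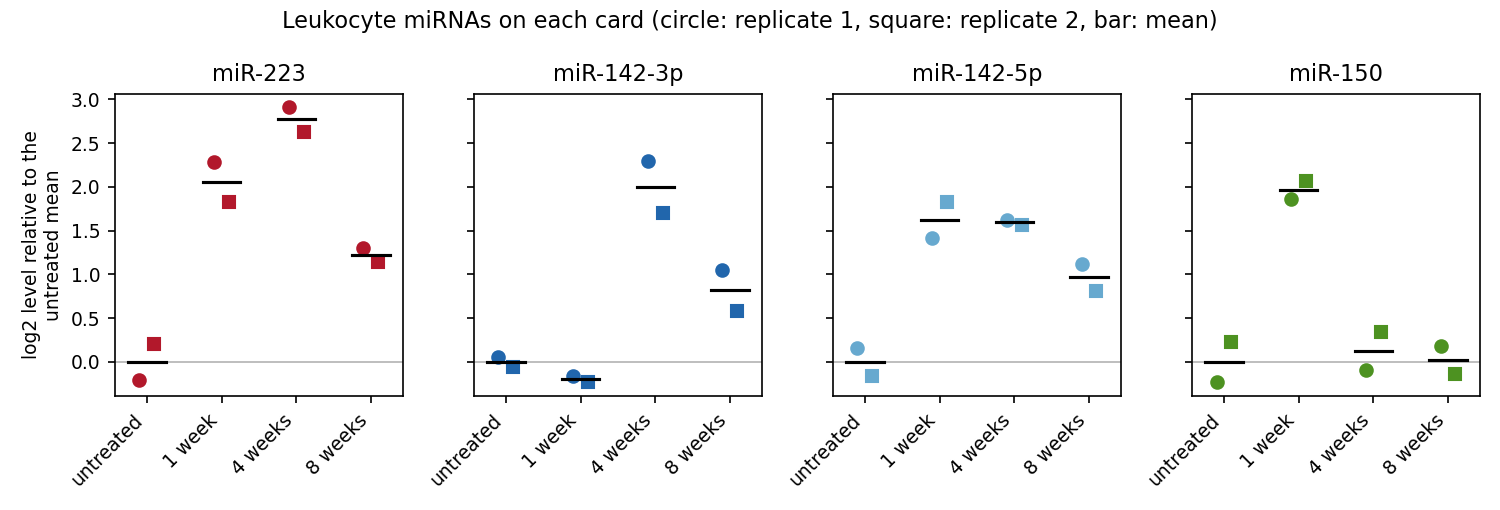
Centred log2 level of each assay on each card, relative to the mean of the untreated cards (vertical axis), by group (horizontal axis); circles are replicate 1, squares replicate 2 and bars group means. miR-223 and miR-142-5p sat above the untreated cards on all 6 CCl4 cards, miR-150 rose to 1.86 and 2.07 at 1 week only, and miR-142-3p stood at -0.16 and -0.23 at 1 week and at 2.30 and 1.71 at 4 weeks.

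Without normalization no member was called in any comparison. Across the 4 assays, 3 were called higher at 1 week (miR-223, miR-150 and miR-142-5p) against a background of 18.1% of the 166 tested assays. At 4 weeks 3 were called higher (miR-223, miR-142-3p and miR-142-5p), against 13.3%. At 8 weeks limma called 0 of the 4, against 2.41% of tested assays called higher, and 3 had an unadjusted p under 0.05, as did 40 of the 166 tested assays in either direction. Both treated cards lay above both untreated cards for 3 members at 1 week (36.1% of tested assays), 3 at 4 weeks (33.7%) and 3 at 8 weeks (28.3%). At 1 week miR-142-3p lay below on both cards, as did 40.4% of tested assays. The median log2 fold change of the 4 was 1.80 after 1 week, 1.80 after 4 weeks and 0.89 after 8 weeks, against -0.09, 0.03 and -0.04 over the tested assays.

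**Figure D2:**
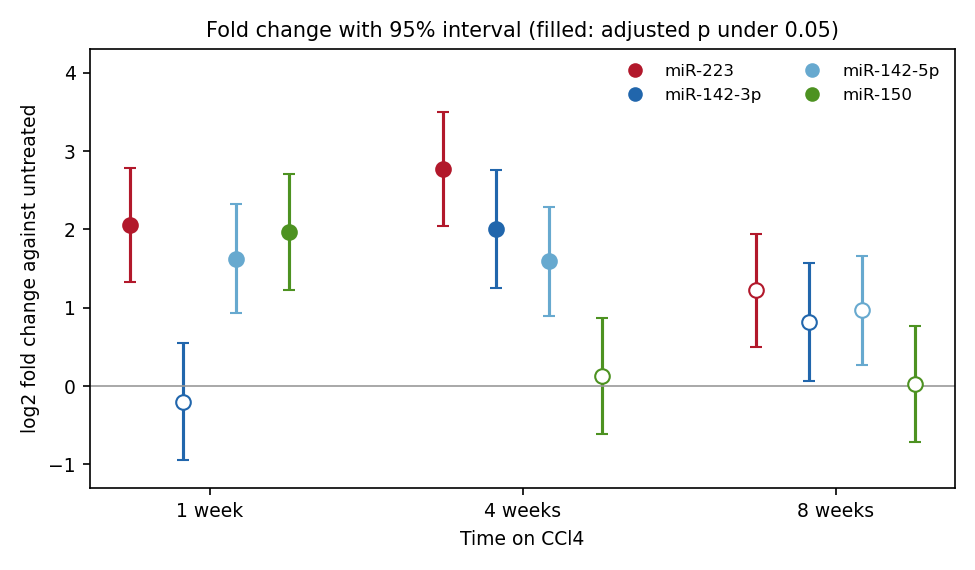
Log2 fold change of each assay against untreated liver (vertical axis) at each time (horizontal axis), with 95% intervals from limma; filled points had an adjusted p under 0.05. The filled points are miR-223, miR-142-5p and miR-150 at 1 week and miR-223, miR-142-3p and miR-142-5p at 4 weeks, and no point is filled at 8 weeks.

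With the 3 CCl4 groups averaged, miR-223 was 2.02 log2 units above untreated (limma adjusted p = 0.00275) and miR-142-5p 1.40 (adjusted p = 0.00852). With quantile normalization the miR-142-5p average was 0.85 and still called (adjusted p = 0.0490). For miR-142-3p the average difference was 0.87 (adjusted p = 0.0425), and that call was lost without either untreated card, either 1-week card, the first 4-week card or the first 8-week card (0.77 to 0.95 over all single omissions). It was also lost when cards were centred on every determined assay (0.64, adjusted p = 0.371) or on the card median (0.86, adjusted p = 0.0566), and with undetermined wells set to Ct 40 (adjusted p = 0.0788). The miR-142-5p call was lost without the second untreated card (1.22, adjusted p = 0.0808) and when cards were centred on every determined assay (1.16, adjusted p = 0.0668). miR-150 averaged 0.70 and did not pass the test (adjusted p = 0.0821), although it did with control RNAs (0.99, adjusted p = 0.0378) and with an eBayes trend (adjusted p = 0.0365). Its average was 0.44 without the first untreated card, 0.47 when cards were centred on every determined assay and 0.25 without normalization. Of all tested assays 12.7% were called higher in this comparison. In the exact two-sided permutation test of 6 CCl4 against 2 untreated cards, miR-223 and miR-142-5p each reached p = 0.0357, not adjusted for the 4 members tested, the smallest value that its 28 splits allow, with 6 of 6 CCl4 cards above both untreated cards. That separation was found for 13.3% of the tested assays. miR-142-3p was above both untreated cards on 4 of 6 CCl4 cards and miR-150 on 3 of 6, and the exact p was 0.357 for each.

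The groups were then compared over time. An F test of whether any of the 4 groups differed, untreated included, called all 4 members. Its adjusted p ran from 0.00401 for miR-223 to 0.0122 for miR-142-5p, and 54.2% of tested assays were called. That test does not compare the CCl4 times alone, which the limma contrasts between times do. Between 1 and 4 weeks miR-150 fell by 1.84 on the log2 scale (limma adjusted p = 0.00614), where 25.3% of tested assays were called lower. The change was smaller with quantile normalization (-1.14, adjusted p = 0.0399) and with control RNAs (-0.96, adjusted p = 0.0426). Over the same interval miR-142-3p rose by 2.20 (adjusted p = 0.00343), where 21.7% were called higher. miR-223 differed by 0.71 (adjusted p = 0.0905) and miR-142-5p by -0.03 (adjusted p = 0.940). At 8 weeks miR-150 was 1.94 log2 units lower than at 1 week (log2 fold change -1.94, adjusted p = 0.00868), where 13.9% of tested assays were called lower. That call was lost without the first 1-week card (-2.08, adjusted p = 0.0529), the second 1-week card (-1.85, adjusted p = 0.0623) or the second 8-week card (-1.78, adjusted p = 0.0888), and with quantile normalization (-1.31, adjusted p = 0.0523). The miR-142-3p difference between 1 and 8 weeks was 1.02 (adjusted p = 0.0561) and was called with control RNAs (1.72, adjusted p = 0.0175), only assays with a mean Ct below 32 (adjusted p = 0.0421), an eBayes trend (adjusted p = 0.0309), a crossed replicate block described in the closing section (adjusted p = 0.0310) and without either 4-week card (adjusted p = 0.0454 and 0.0412). Between 4 and 8 weeks 1.2% of tested assays were called in either direction and no member was. The largest member difference there was -1.55 for miR-223 (adjusted p = 0.0649, unadjusted p = 0.00131), followed by -1.18 for miR-142-3p (adjusted p = 0.148). The miR-223 difference was called with quantile normalization (-2.12, adjusted p = 0.00702), an eBayes trend (adjusted p = 0.0185), only assays with a mean Ct below 32 (adjusted p = 0.0465) and the crossed block (adjusted p = 0.0255).

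Ordered by level, miR-223 ran from 4 weeks down through 1 week and 8 weeks to untreated. No neighbours in that order passed the test, and the adjusted p was 0.0905, 0.0854 and 0.0792 from the top. The step from 1 to 4 weeks was called with quantile normalization (1.71, adjusted p = 0.0049), control RNAs (1.60, adjusted p = 0.00696), an eBayes trend (adjusted p = 0.0489) and the crossed block (adjusted p = 0.0454). The step between 1 and 8 weeks, -0.83 as reported, was called with the trend (adjusted p = 0.0428) and the crossed block (adjusted p = 0.0376). It was smaller and not called with control RNAs (-0.135, adjusted p = 0.798), quantile normalization (-0.41, adjusted p = 0.175) or no normalization (-0.335, adjusted p = 0.863). miR-142-3p ran from 4 weeks through 8 weeks and untreated to 1 week, again with no called neighbours (adjusted p = 0.148, 0.172 and 0.647). miR-142-5p ran from 1 week through 4 and 8 weeks to untreated, where the 1-week and 4-week levels differed by 0.03 (adjusted p = 0.940) and the other neighbours had adjusted p of 0.267 and 0.114. For miR-150 the step from 1 week to 4 weeks was called, and the 4-week, 8-week and untreated levels followed without a called step.

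A difference between assays of the same card does not depend on how the card is scaled, so the 6 pairs of members were also compared within cards. The miR-142-3p minus miR-142-5p difference was 6.04 and 6.25 log2 units in untreated liver, 4.56 and 4.08 on the 1-week cards, 6.82 and 6.28 on the 4-week cards, and 6.08 and 5.91 on the 8-week cards. The 1-week cards stood apart from the other 6, with a mean shift of -1.82 from untreated, while the shift was 0.41 at 4 weeks and -0.15 at 8 weeks. Such a difference holds the efficiencies of both assays, so only its shift between cards is read here. In an exact permutation test over the 105 ways to divide the 8 cards into 4 pairs, chosen after the data were seen, the groups differed with p = 0.019 (0.0286 adjusted over the 6 pairs). miR-142-5p was read at Ct 32.15 to 33.99, near the faint end of the range.

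The 6 other hairpins with both arms on every card gave a scale for that shift. Their 1-week shifts, as the 3p arm minus the 5p arm, ran from -0.62 for miR-335 to 2.09 for miR-339. The miR-142 shift lay below that range, in the direction of less 3p relative to 5p arm. The miR-339 shift was larger in size. At 1 week miR-142-3p changed by -0.20 against untreated and was not called, while miR-142-5p changed by 1.63 and was called. The 4-week shifts of the other hairpins ran from -1.935 for miR-339 to 0.705 for miR-532, with miR-337 at -1.76. The 1-week miR-142 shift lay within that wider range. The miR-337 arms were faint, with a mean Ct of 34.88 (3p) and 35.18 (5p).

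The miR-223 minus miR-150 difference was 1.60 and 1.56 (untreated cards), 2.00 and 1.34 (1-week cards), 4.58 and 3.87 (4-week cards), and 2.70 and 2.86 (8-week cards). Its mean shift from untreated was 0.09 at 1 week, with 1 card above and 1 below the untreated cards, 2.64 at 4 weeks and 1.20 at 8 weeks (exact p over the 4 groups = 0.0286, adjusted 0.0343). For miR-142-3p minus miR-150 the shifts were -2.17, 1.88 and 0.80 in the order of the times, with the smallest exact p that the 4-group test allows, 0.00952 (adjusted 0.0286). The miR-142-5p minus miR-150 shifts were -0.34, 1.47 and 0.95 (exact p = 0.019, adjusted 0.0286), and the miR-223 minus miR-142-3p shifts were 2.25, 0.77 and 0.41 (exact p = 0.019, adjusted 0.0286). miR-223 minus miR-142-5p did not pass, with shifts of 0.43, 1.18 and 0.26 (exact p = 0.210, adjusted 0.210). When the 6 CCl4 cards were pooled against the 2 untreated cards, the exact two-sided p of the 6 pairs ran from 0.107 to 0.893, and none passed.

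**Figure D3:**
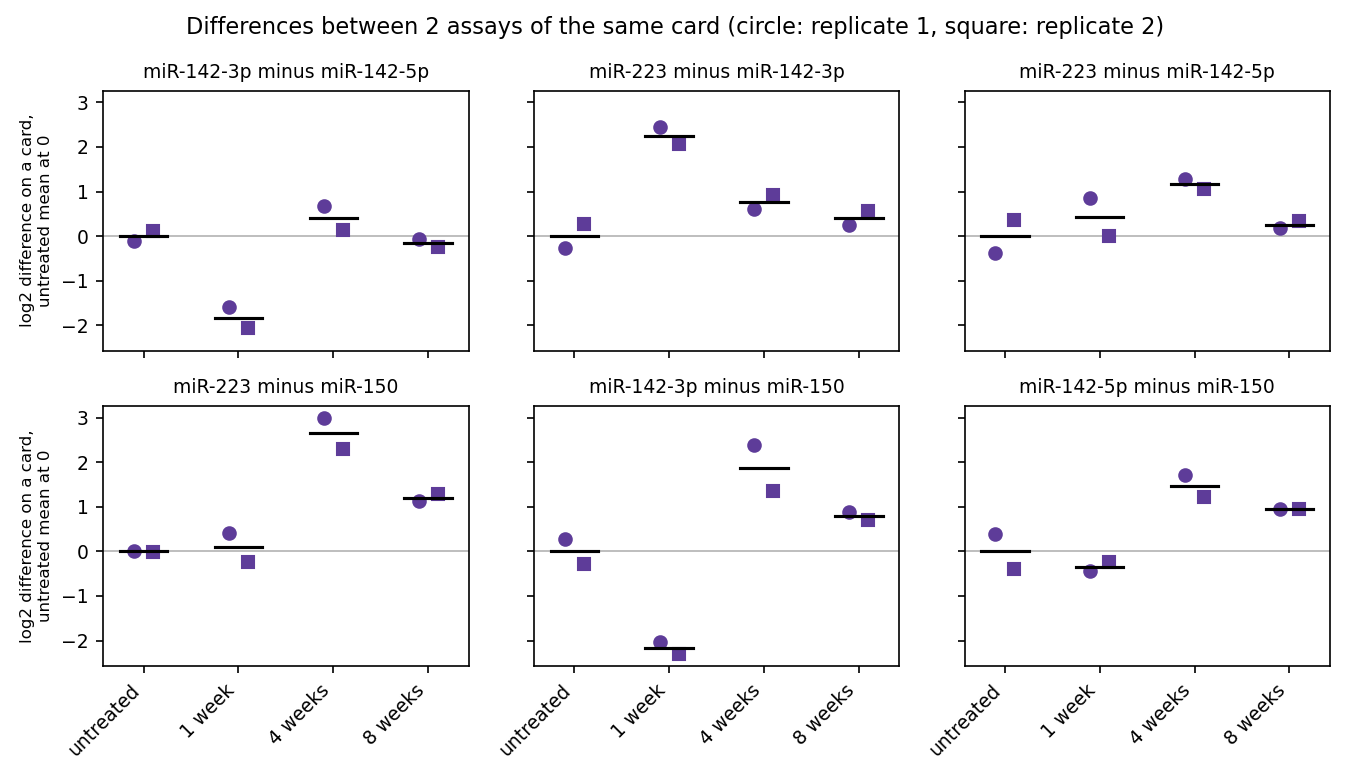
Difference in log2 level between pairs of assays of the same card (vertical axis), set to 0 at the untreated mean, by group (horizontal axis); circles are replicate 1, squares replicate 2 and bars group means. The miR-142 arms parted by -1.82 at 1 week, against 0.41 and -0.15 at the later times, and miR-223 minus miR-150 stayed within 0.09 of untreated on average at 1 week and reached 2.64 at 4 weeks.

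Other leukocyte-enriched or inflammation-induced miRNAs were examined as a list of 10, of which 7 could be tested. At 1 week 5 were called higher, as were 30 of all 166 tested assays, and none lower. They were miR-146b (log2 fold change 3.73) and miR-146a (1.79), which are induced by NF-kB signalling, miR-342-3p (2.55), a miRNA of the blood lineage, miR-155 (1.40), which is induced in activated lymphocytes and macrophages, and miR-132 (1.39), a signal-induced miRNA. At 4 weeks 3 were called higher (22 of all 166), namely miR-132 (2.10), miR-342-3p (1.69) and miR-155 (1.03), and at 8 weeks limma called 0 of the 7, with 2 at an unadjusted p under 0.05. miR-181a had values of -0.69, 1.54 and 0.17 at 1, 4 and 8 weeks and miR-21 of -0.08, 0.60 and 0.15, none of which passed the test. The list's medians were 1.40, 1.20 and 0.61. Of the others, miR-342-5p was determined on 5 cards, miR-181c had a mean Ct of 35.05 and miR-147 was determined on 0 cards. Across the scalings tried, the number called higher ran from 1 to 5 after 1 week of CCl4, from 0 to 7 after 4 weeks and from 0 to 1 after 8 weeks, and none was called lower.

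Markers of other liver cells moved with the same cards. The summed relative level of the 4 members was 3.42 to 4.16 in the 1-week cards, 4.75 to 5.72 in the 4-week cards and 1.83 to 2.10 in the 8-week cards, with the untreated mean at 1. Such a sum weights assays by their brightness, so that of the members is carried by miR-223. The sum of the 4 hepatocyte miRNAs (miR-122, miR-192, miR-194 and miR-802) was 0.574 to 0.594, 0.340 to 0.382 and 0.589 to 0.696 at the same times. Within it miR-802 was called lower at all 3 times (-1.72, -3.28 and -2.04), miR-192 (-2.76) and miR-194 (-2.49) at 4 weeks only, and miR-122 at none, where 24, 28 and 1 of all 166 assays were called lower at 1, 4 and 8 weeks. Over the scalings tried the list held 0 to 2 calls at 1 week, 3 at 4 weeks and 0 or 1 at 8 weeks, all lower. Both arms of endothelial miR-126 were lower at 4 weeks (-1.83 and -1.65), with a summed level of 0.212 to 0.369, but neither was called with quantile normalization (median -0.89), control RNAs (median -1.10) or no normalization (median -2.58). Their summed level was 1.46 to 1.53 in the 1-week cards and 0.392 to 0.699 in the 8-week cards, against 0.828 to 1.17 in untreated liver. Neither arm was called against untreated at 1 or 8 weeks. Of the 4 tested stellate, fibroblast and smooth muscle miRNAs, miR-199a-3p (1.10) and miR-214 (1.69) were called higher at 4 weeks, when the list's summed level was 1.24 to 1.68, and 0 to 2 were called over the scalings. The part of these shifts in the members' values was not tested.

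The 2 erythroid miRNAs on the cards, miR-451 and miR-486, were not called against untreated at any time (limma, 0 with an unadjusted p under 0.05). Other scalings gave no call either. At 1 week 1 of the 2 had an unadjusted p under 0.05 when centred on every determined assay or the card median, and with quantile normalization. Control RNAs gave 1 at 4 weeks and 1 at 8 weeks. As reported, their summed level was 0.988 to 1.15 in the 1-week cards, 0.848 to 1.03 in the 4-week cards and 0.954 to 1.22 in the 8-week cards, against 0.869 to 1.13 in untreated liver. Between CCl4 times, miR-451 was higher at 4 weeks (1.40, limma adjusted p = 0.0242) and 8 weeks (1.60, adjusted p = 0.0320) than at 1 week. Of all tested assays, 21.7% were called higher at 4 weeks than at 1 week. The miR-451 values against untreated were -0.86, 0.55 and 0.74. The 4 tested epithelial miRNAs of the miR-200 family were not called against untreated either, with 0, 1 and 1 at an unadjusted p under 0.05, and their summed level was 1.08 to 1.24, 0.606 to 0.872 and 0.557 to 0.687 at the same times. Between 1 and 4 weeks miR-200a (-1.05, limma adjusted p = 0.0417) and miR-429 (-2.17, adjusted p = 0.0242) were called lower, as were 25.3% of tested assays.

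**Figure D4:**
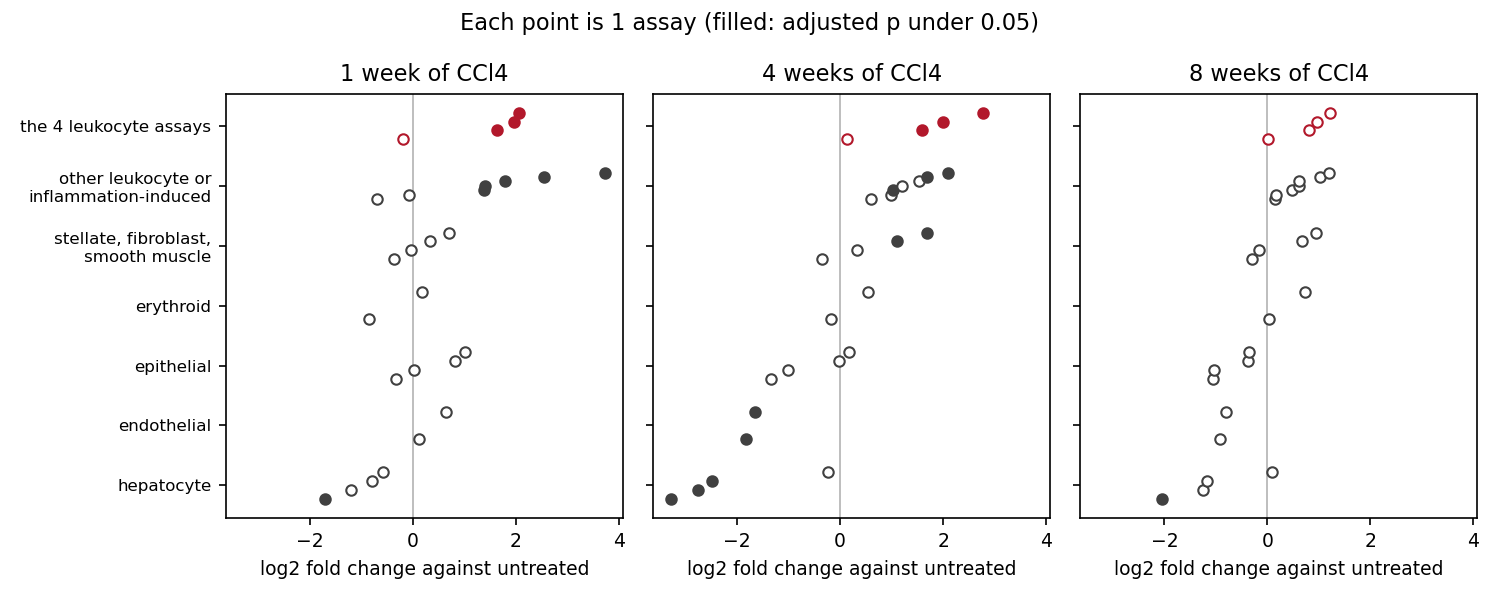
Log2 fold change against untreated liver (horizontal axis) of every tested assay in each list (vertical axis), with 1 panel per time; filled points had a limma adjusted p under 0.05. The 4 leukocyte assays and the other leukocyte or inflammation-induced assays lay mostly above 0, the hepatocyte assays mostly below it, and the 2 erythroid assays held no filled point.

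The assays outside the 4 members whose centred values moved most like each member were found by Pearson's r over the 8 cards. The values are a description, since the cards are 4 groups of 2 and share their scaling. The closest to miR-223 were miR-132 (0.931), miR-34b-3p (0.890) and miR-106b (0.872). The closest to miR-142-5p were miR-106b (0.955), miR-450a-5p (0.908) and miR-132 (0.896), so both share miR-106b and miR-132. Between miR-223 and miR-142-5p themselves r was 0.900. miR-142-3p was followed by miR-215 (0.886), miR-27a (0.883) and let-7i (0.850), with no assay in common with its partner arm. miR-150 was followed most closely, by miR-484 (0.995), miR-222 (0.939) and miR-339-3p (0.933). The last is the 3p arm of the hairpin at the upper end of the 1-week arm shifts above.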

How the data were processed

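Total RNA of whole liver was reverse transcribed by the authors without pre-amplification and run on TaqMan Rodent MicroRNA A cards v2.0, per the study's methods. The deposited values are raw Ct values, unnormalized per-card cycle numbers in a unit of their own. A deposited table of the authors' own fold changes, averaged per group, was not used here. Each Ct was subtracted from its card's mean over the 149 assays below Ct 35 on all cards, where the methods name the geometric mean of each plate. Centring on every determined assay of a card was an alternative. The 166 assays determined on all 8 cards with a mean Ct below 35 were fitted in limma 3.58.1 (R 4.3.3), with all groups in 1 model and Benjamini-Hochberg adjustment over the 166 at 0.05. The median residual SD was 0.39 log2 units. Single values were tested by exact permutation of cards (Python 3.11.15); with 2 cards against 2 the smallest exact p would be 0.333. The pipeline was tested on simulated data. Alternatives were other card scalings, filters, variance models, a replicate block and leaving out each card. A Ct carries no read depth, and having 2 cards per group limits the precision.

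The members and marker lists were chosen with earlier results of these data known. The text names the 4 members, the 3 assays outside the members most correlated with each over the 8 cards, the assays of the lists and the control RNAs. It also names the hairpins at both ends of the range of arm shifts, chosen after their values were seen.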

Additional observations from a re-analysis of the deposited data

Results flagged for a closer look

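The response of 2 members differed between times in the limma test of the difference itself. The log2 change of miR-150 was -1.84 between 1 and 4 weeks (adjusted p = 0.00614) and -1.94 between 1 and 8 weeks (adjusted p = 0.00868). The second call was lost without the first 1-week card (adjusted p = 0.0529), the second 1-week card (0.0623) or the second 8-week card (0.0888), with quantile normalization (0.0523) and without normalization (0.429), where the first was lost too (0.101). For miR-142-3p the change between 1 and 4 weeks was 2.20 (adjusted p = 0.00343), in the opposite direction. The call for miR-142-3p was also lost without normalization (1.865, adjusted p = 0.169). Its change between 1 and 8 weeks was 1.02 and did not pass (adjusted p = 0.0561).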

How the results depend on the processing

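The 6 calls of members against untreated kept their direction under every alternative run, except that miR-142-5p was not tested with a mean Ct below 32. Without normalization none remained called, with log2 fold changes of 1.55 (miR-223), 1.46 (miR-150) and 1.12 (miR-142-5p) at 1 week and 1.93 (miR-223), 1.16 (miR-142-3p) and 0.75 (miR-142-5p) at 4 weeks, and miR-150 then turned to -0.72 at 4 weeks against untreated. Between 4 and 8 weeks, miR-150 turned to 0.73 and miR-142-5p to 0.21 without normalization. With cards centred on every assay they determined, miR-142-5p lost its calls at 1 week (1.27, adjusted p = 0.0789) and 4 weeks (1.32, adjusted p = 0.0772), miR-150 turned to -0.15 (4 weeks) and -0.050 (8 weeks) against untreated and to 0.10 between 4 and 8 weeks, and miR-142-5p to 0.052 between 1 and 4 weeks. Quantile normalization took the 1-week call from miR-142-5p (0.97, adjusted p = 0.0529), turned its change between 1 and 4 weeks to 0.11 and gave an 8-week call to miR-223 (1.39, adjusted p = 0.0235). Centring on control RNAs gave that call too (1.68, adjusted p = 0.0347) and turned miR-142-5p to 0.85 between 1 and 4 weeks and to 0.04 between 1 and 8 weeks. The control RNA U6 itself ran from 8.71 to 13.01 in centred value. An eBayes trend also called miR-223 at 8 weeks (1.22, adjusted p = 0.0392), as did the crossed block below (1.22, adjusted p = 0.0332). The cause of these changes was not tested.

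The median of all tested assays at 1, 4 and 8 weeks was -0.45, -0.25 and -0.11 when centred on every determined assay, -0.33, 0.67 and 0.42 with control RNAs and -0.60, -0.82 and -0.05 without normalization, against -0.09, 0.03 and -0.04 as reported. Calls split into 30 higher and 24 lower at 1 week and 22 and 28 at 4 weeks as reported, 18 and 33 and then 12 and 27 centred on every determined assay, 22 and 25 and then 45 and 11 with control RNAs, and 4 and 1 and then 1 and 9 without normalization. The totals called were 54, 50 and 5 at 1, 4 and 8 weeks as reported and 5, 10 and 1 without normalization. The 8-week total was 1 centred on every determined assay, 12 with control RNAs, 3 below Ct 32, 2 with undetermined wells at Ct 40, 11 with a trend and 0 in limma with only the groups compared, where 32 had an unadjusted p under 0.05.

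Leaving out each card in turn, the totals ran from 17 to 59 (1 week), 22 to 51 (4 weeks) and 0 to 6 (8 weeks). The 1-week total was 17 without the first untreated card, 28 without the first 1-week card and 24 without the second. The 4-week total was 22 without the second untreated card and 31 without the second 4-week card. At 8 weeks it was 0 without the first 1-week card or either 8-week card, where 34, 45 and 27 assays had an unadjusted p under 0.05, 1 without either untreated card and 2 without the second 1-week card. Over the same omissions, miR-142-5p ran from 1.42 to 1.86 (1 week) and 1.42 to 1.73 (4 weeks), and miR-150 from -0.13 to 0.34 (4 weeks) and -0.23 to 0.24 (8 weeks). The change between 1 and 4 weeks ran from -0.28 to 0.15 for miR-142-5p, and that between 4 and 8 weeks from -0.32 to 0.11 for miR-150. The CCl4 minus untreated difference of miR-142-3p minus miR-150 ran from -0.28 to 0.66 around 0.17, turning to -0.12 without the second untreated card and to -0.28 and -0.07 without the first and second 4-week cards.

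Deviations of same-numbered cards correlated at 0.43 between the 4-week and 8-week groups, but at -0.39 and -0.50 between those groups and untreated and at 0.10 or less between the 1-week group and the others (over 166 assays), so the numbers were not read as pairs. The replicate block changed no member's call and gave 50, 49 and 4 calls. A block with the untreated numbers crossed, added after the data were seen, gave 74, 65 and 17. That choice was not independent of the values, so calls gained under the crossed block are given as a description only. Its Ct near 34 in untreated liver limits how well its level there is known.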
